A study of Sus scrofa with 11 samples.

Results

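Collagen crosslinking and hydroxylation enzymes were followed through an ex vivo culture model of the stented pig coronary artery. The set holds 9 genes, matched by symbol to Ensembl pig identifiers, out of 25880 genes in the joined count tables. They are the lysyl oxidases LOX, LOXL1, LOXL2 and LOXL3, the prolyl 4-hydroxylase alpha subunits P4HA1, P4HA2 and P4HA3, and the lysyl hydroxylases PLOD1 and PLOD2. Each symbol matched a single identifier, and all 9 passed the filter on low counts that left 15348 genes for testing.

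Total RNA of porcine (Sus scrofa) coronary artery was sequenced in 11 libraries. Stent/Flow- stood for stented vessels kept in a bioreactor without flow (2 libraries), Stent/Flow++ for stented vessels in the bioreactor under dynamic flow (3), Flow++ for dynamic flow with no stent (2), Flow+ for dynamic low flow with no stent (2), and Native for arteries that were not cultured (2). Not given in the sources used here: breed, age and sex of the pigs, and how long vessels were cultured. Sample names carry a d suffix of 3 for the Stent/Flow- libraries and of 7 for Stent/Flow++ replicate 3, without explanation, and Native replicate 2 and Stent/Flow++ replicate 1 share the number 25. Whether replicates are separate animals is not stated either, so the p-values reflect the spread among these libraries, which may be only technical.

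Collagen chains are modified in the endoplasmic reticulum before they fold. Prolyl 4-hydroxylase joins alpha subunits with P4HB, and its product, 4-hydroxyproline, keeps the triple helix stable at body temperature. Lysyl hydroxylases act on lysines of the same chains and so set which crosslinks can form. After secretion, the copper-dependent lysyl oxidases turn lysine and hydroxylysine side chains into aldehydes that crosslink collagen and elastin, which gives the arterial wall its strength and recoil. The hydroxylases need oxygen, iron, 2-oxoglutarate and ascorbate, and several of these genes are known targets of hypoxia-inducible factors.

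Levels are CPM, counts divided by a library size scaled with the trimmed mean of M values (TMM), given per library in replicate order. Changes are log2 fold changes ± standard error. Values in parentheses after a change or a setting are p-values of edgeR's quasi-likelihood test, Benjamini-Hochberg adjusted over 15348 genes, unless DESeq2 or limma-voom is named. A gene is said to rise or fall only where this adjusted p is under 0.05. No transcript lengths were at hand, so levels are compared between libraries and not between genes. Libraries held 13496636 to 26785124 counts in all, so that 3 counts stand for 0.105 to 0.215 CPM. Across genes, libraries of a group had a Pearson's r of 0.932 to 0.979 in log2 CPM.

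The label coronary artery was checked against marker genes. Contractile smooth muscle markers (8 of 8 matched) summed to 459.8 to 6965 CPM in the 9 cultured libraries, against 27383 and 32896 CPM in Native. Endothelial markers (6 of 8) summed to 215 to 913 CPM in culture and 735 and 876 CPM in Native, and adventitial fibroblast markers (8 of 8) to 1578 to 6386 CPM in culture and 2992 and 3256 CPM in Native. That fibroblast sum holds opposite changes. Averaged over the 4 cultured groups, 5 of the 8 markers fell and 2 rose, with a median log2 fold change of -1.60. PI16 was at 2.29 to 12.8 CPM in culture and 266 to 294 CPM in Native. PDGFRA was at 64.0 to 442 CPM in culture and 23.7 to 42.1 CPM in Native. Macrophage markers (8 of 8) were at 258 to 1859 CPM in culture and 429.6 and 418 CPM in Native, and adipocyte markers (6 of 6) at 29.3 to 2387 CPM in culture and 2716 and 1730 CPM in Native, both highest among cultured libraries in Stent/Flow- replicate 1, and smooth muscle markers lowest there. The macrophage sum also holds opposite changes. CD163 and MSR1 rose in all 4 cultured groups and CD68 in 1, while CSF1R fell in 2. AIF1, C1QA, C1QB and MRC1 were called in none. CD163 was at 93.1 to 1075 CPM in culture and 46.1 to 55.2 CPM in Native. Cardiomyocyte markers (5 of 8) were at 2.81 to 52.2 CPM in culture, against 1290 CPM in Native replicate 1 and 81.7 CPM in Native replicate 2. RYR2 alone held 76.2 CPM of the sum in Native replicate 2 and was at 2.11 to 50.1 CPM in culture. MYH6, TNNT2 and ACTC1 were at 539, 403 and 197 CPM in Native replicate 1. In Native replicate 2 they were at 1.67, 1.32 and 2.42 CPM. In single cultured libraries up to 1 adipocyte and 2 cardiomyocyte markers were at 0, and no marker of the other cell types was. In bulk samples fewer cells of a type and less RNA per cell cannot be told apart, and the part of these differences in the results below was not tested.

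Against Native arteries, transcripts for most of the enzymes were higher in culture. LOXL2, P4HA1, P4HA2 and PLOD1 rose in each of the 4 cultured groups, while LOXL1 was the member whose cultured libraries all stood below Native. Among the members, 4 of 9 rose and 0 fell in Stent/Flow-, where 5.54% of all genes tested rose and 7.19% fell. With stent and flow, 7 of 9 rose and 0 fell in Stent/Flow++, where 10.4% of all genes tested rose and 13.9% fell. In the vessels with no stent, 6 of 9 rose and 0 fell in Flow++, where 5.94% of all genes tested rose and 8.86% fell, and 6 of 9 rose and 0 fell in Flow+, where 5.03% of all genes tested rose and 7.38% fell. The median log2 fold change of the 9 members was 1.19, 2.34, 1.60 and 2.01 in Stent/Flow-, Stent/Flow++, Flow++ and Flow+, beside 0.02, 0.06, 0.02 and -0.00145 over all genes tested. Averaged over the 4 cultured groups, 6 of 9 rose and 1 fell, beside 9.79% and 15.9% of all genes tested. These comparisons share the 2 Native libraries. The members and the gene lists used below were chosen with earlier results of these data known. Their counts and medians, set beside all genes tested, are therefore a description.

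Counted by libraries that do not overlap with Native, 6 of 9 members lay wholly higher and 1 wholly lower (all genes tested 28.9% and 29.8%) in Stent/Flow-. In Stent/Flow++, 8 of 9 members lay wholly higher and 1 wholly lower (all genes tested 25.4% and 27.6%). In Flow++, 7 of 9 members lay wholly higher and 1 wholly lower (all genes tested 31.3% and 31.5%), and in Flow+, 8 of 9 members lay wholly higher and 1 wholly lower (all genes tested 33.5% and 34.4%). For all 9 cultured libraries together, 6 of 9 members lay wholly higher and 1 wholly lower (all genes tested 14.1% and 16.9%). The member wholly lower was LOXL1 in each case.

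The 4 members that rose in all 4 comparisons compare with 2.2% of all genes tested. This number was 0 without either Native library, 1 without Flow++ replicate 1 or Flow+ replicate 1, and 2 without Stent/Flow- replicate 2 or Flow+ replicate 2. Without Native replicate 1 the members called were 0 in Stent/Flow-, 4 in Stent/Flow++, 1 in Flow++, 0 in Flow+ and 3 for the average. Without Native replicate 2 they were 0, 5, 1, 0 and 4 in the same order. Stent/Flow- had 2 without its replicate 2, Flow++ had 1 without its replicate 1, and Flow+ had 1 and 3 without its replicates 1 and 2.

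**Figure D1:**
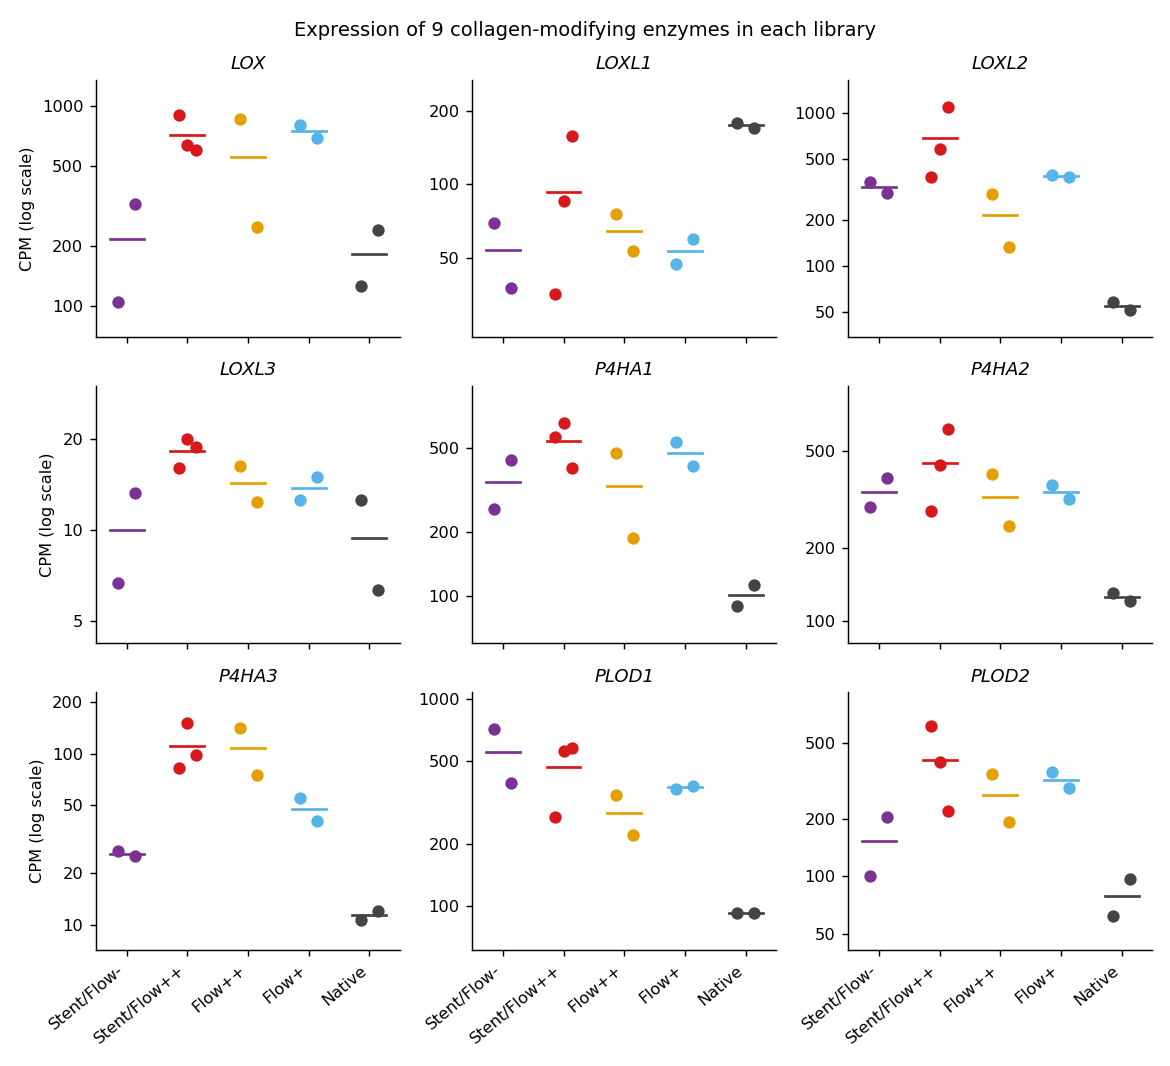
CPM of the 9 enzymes in each of the 11 libraries on logarithmic axes, with 1 point per library and a bar at each group's mean. LOXL2, P4HA1, P4HA2, P4HA3, PLOD1 and PLOD2 are above Native in the 9 cultured libraries, LOXL1 is below it, and LOX and LOXL3 overlap with it.

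**Figure D2:**
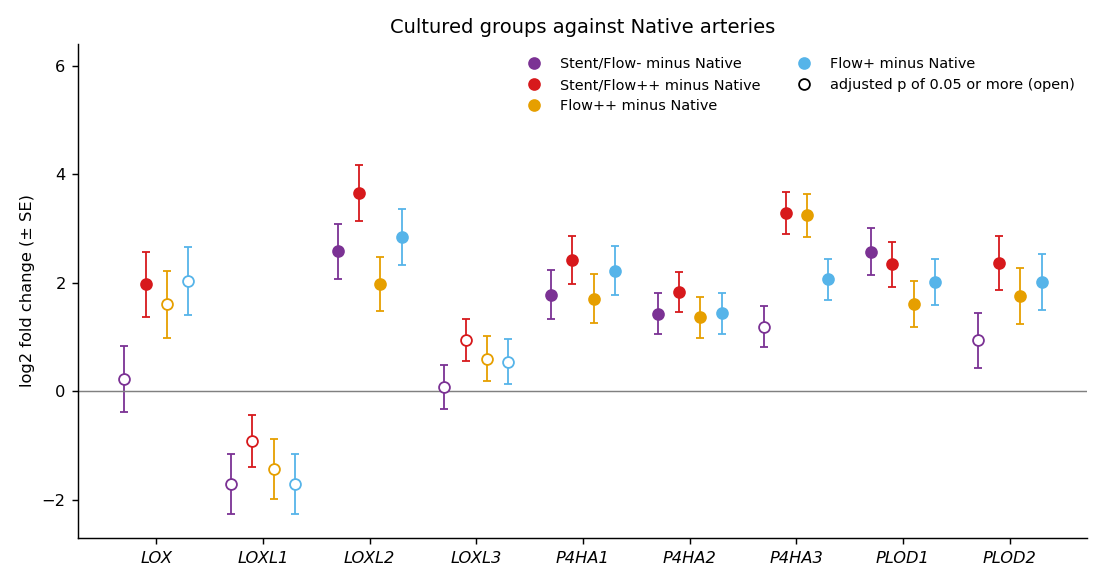
Log2 fold changes of the 4 cultured groups against Native, with bars of 1 standard error on each side. Filled points passed an edgeR adjusted p of 0.05 and open points did not, and the values lie between -1.71 for LOXL1 in Flow+ and 3.66 for LOXL2 in Stent/Flow++.

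Among the 4 lysyl oxidases of the set, LOXL2 had the highest log2 fold change in each cultured group. LOXL2 (ENSSSCG00000033608, chromosome 14, 7435861 to 7540699 in Sscrofa11.1, the build of all positions here) crosslinks collagen, that of basement membranes included. It was measured at 357 and 298 CPM in Stent/Flow-, 381, 581 and 1109 CPM in Stent/Flow++, 297 and 133 CPM in Flow++ and 396 and 385 CPM in Flow+, against 58.1 and 51.0 CPM in Native. Each cultured library lay above both Native ones, Flow++ replicate 2 being the nearest to them. The widest spread was in Stent/Flow++, where replicate 3 was the highest of all. LOXL2 rose by 2.58 ± 0.51 (0.00927) in Stent/Flow-, 3.66 ± 0.51 (0.000804) in Stent/Flow++, 1.98 ± 0.50 (0.0229) in Flow++ and 2.84 ± 0.51 (0.00670) in Flow+. In order of group means, Stent/Flow++ and Flow+ overlapped, while Flow+, Stent/Flow-, Flow++ and Native followed each other without overlap, Stent/Flow- and Flow++ by a small margin. LOXL2 lost its calls in Stent/Flow- without Native replicate 1 (0.0772) or 2 (0.0970), in Flow++ without Flow++ replicate 1 (log2 fold change 1.29, adjusted p = 0.179) or Native replicate 1 (0.125) or 2 (0.145) and in Flow+ without Native replicate 1 (0.0667) or 2 (0.0733). Its call in Stent/Flow++ was kept in each of 19 alternatives.

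LOX, the founding member of the family (ENSSSCG00000014232, chromosome 2, 125595115 to 125607026), acts on both collagen and elastin. It was at 104 and 325 CPM in Stent/Flow-, 905, 639 and 600.1 CPM in Stent/Flow++, 861 and 247 CPM in Flow++ and 803 and 693 CPM in Flow+, against 126 and 239 CPM in Native. The static libraries lay around the Native ones, and the vessels under flow lay above them, Flow++ replicate 2 only just so. LOX rose by 1.97 ± 0.60 (0.0346) in Stent/Flow++, and was at 0.24 ± 0.61 (0.832) in Stent/Flow-, 1.60 ± 0.62 (0.107) in Flow++ and 2.04 ± 0.63 (0.0575) in Flow+, which did not pass. Neighbours in the order of means, which ran Flow+, Stent/Flow++, Flow++, Stent/Flow- and Native, overlapped in each case. LOX lost its call in Stent/Flow++ with the replicate block (0.0646) or without Stent/Flow++ replicate 1 (0.0625) or 2 (0.0610), Flow+ replicate 1 (0.0502) or 2 (0.0502) or Native replicate 1 (0.239) or 2 (0.0795). It passed in Flow++ with DESeq2 (0.0466), without a filter on low counts (0.0383) or without Flow++ replicate 2 (0.0448) and in Flow+ with DESeq2 (0.00850), with limma-voom (0.0438), without a filter on low counts (0.0109), with only the groups compared (0.000946) or without Stent/Flow- replicate 1 (0.0287) or 2 (0.0288) or Flow++ replicate 1 (0.0347) or 2 (0.0349). In Flow++ LOX was at 0.44 without Flow++ replicate 1 and 2.28 without Flow++ replicate 2.

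LOXL1 (ENSSSCG00000001914, chromosome 7, 59481410 to 59505161), which in mice is needed to renew elastic fibres, lay in the opposite direction. It stood at 69.8 and 37.7 CPM in Stent/Flow-, 35.6, 85.3 and 157 CPM in Stent/Flow++, 75.6 and 53.5 CPM in Flow++ and 47.3 and 59.7 CPM in Flow+, against 179 and 171 CPM in Native. Each cultured library was below both Native ones, and the cultured groups overlapped with their neighbours in the order Stent/Flow++, Flow++, Stent/Flow- and Flow+, but the range among the Stent/Flow++ libraries was wide and replicate 3 came close to Native. Its changes of -1.70 ± 0.55 (0.0678) in Stent/Flow-, -0.91 ± 0.49 (0.198) in Stent/Flow++, -1.44 ± 0.55 (0.103) in Flow++ and -1.71 ± 0.55 (0.0684) in Flow+ were short of the threshold. Averaged over the 4 cultured groups LOXL1 fell, with a log2 fold change of -1.44 ± 0.39 (0.0190), and this was lost without Native replicate 1 (0.137) or 2 (0.133). LOXL1 passed in Stent/Flow- with DESeq2 (0.0186), without a filter on low counts (0.0206), with the replicate block (0.0418), with only the groups compared (0.0336) or without Stent/Flow++ replicate 1 (0.0174) or 3 (0.0245), in Stent/Flow++ with the replicate block (0.0482) or without Stent/Flow++ replicate 3 (0.0301), in Flow++ with DESeq2 (0.0471), without a filter on low counts (0.0475), with only the groups compared (0.0119) or without Stent/Flow++ replicate 1 (0.0298) or 3 (0.0415) and in Flow+ with DESeq2 (0.0169), without a filter on low counts (0.0211), with the replicate block (0.0414), with only the groups compared (0.000382) or without Stent/Flow++ replicate 1 (0.0174) or 3 (0.0249).

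LOXL3 (ENSSSCG00000008266, chromosome 3, 68498114 to 68516829), a close relative of LOXL2, was the member with no call in any of the 8 comparisons. It was at 6.68 and 13.3 CPM in Stent/Flow-, 16.0, 19.9 and 18.7 CPM in Stent/Flow++, 16.2 and 12.4 CPM in Flow++ and 12.5 and 14.9 CPM in Flow+, against 12.5 and 6.33 CPM in Native. Cultured and Native libraries overlapped in Stent/Flow- and Flow++ and almost met in Flow+. LOXL3 was at 0.08 ± 0.41 (0.923) in Stent/Flow-, 0.95 ± 0.39 (0.0977) in Stent/Flow++, 0.60 ± 0.41 (0.362) in Flow++ and 0.54 ± 0.41 (0.422) in Flow+, none of which passed here or in the alternatives tried. The 95% interval of the Stent/Flow- difference ran from -0.83 to 0.99. Each neighbouring pair in the order of group means overlapped.

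The makeup of the 4 lysyl oxidases of the set differed accordingly within each library. LOXL1 made up 2.66 to 13.0% of their summed CPM, which leaves out LOXL4, in the 9 cultured libraries, against 47.7% and 36.5% in Native. LOXL2 made up 23.7 to 66.3% in culture, against 15.5% and 10.9% in Native. The share of LOX, 19.4 to 68.9% in culture, spanned the 33.5% and 51.2% of Native. These are shares of counts not corrected for length, so they are comparable between libraries and not between genes, and they do not depend on how libraries are scaled.

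**Figure D3:**
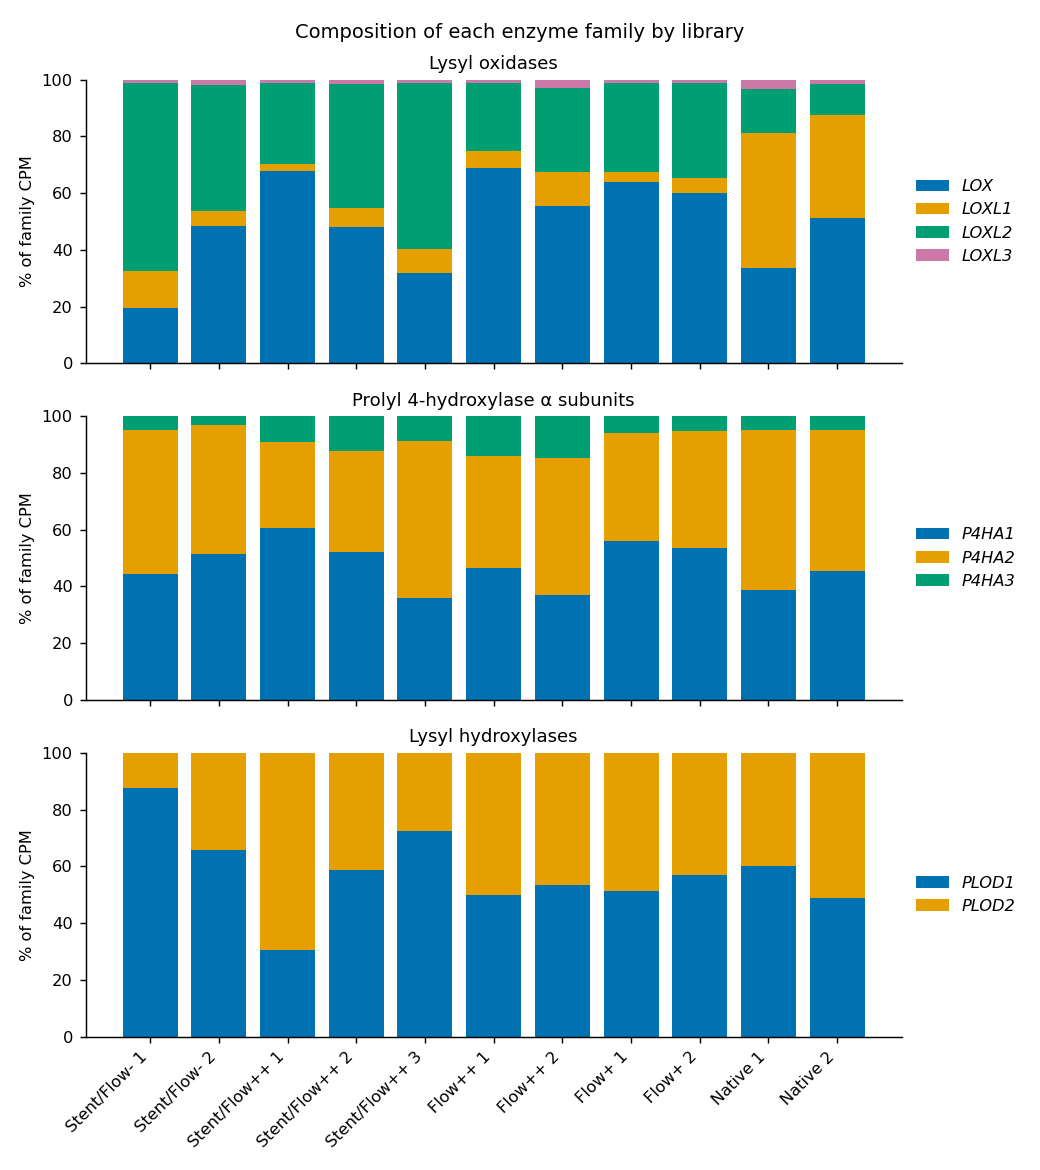
Share of each member in the summed CPM of the members of its family, in percent, with 1 bar for each of the 11 libraries. The LOXL1 part is 36.5% or more in Native and 13.0% or less in culture, and the PLOD1 part is largest in Stent/Flow- replicate 1.

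The alpha subunits of prolyl 4-hydroxylase carry the catalytic site, and P4HA1 and P4HA2, the widely expressed forms, rose in each cultured group. P4HA1 (ENSSSCG00000010292, chromosome 14, 75827207 to 75919121) was at 256 and 435 CPM in Stent/Flow-, 563, 650.1 and 402 CPM in Stent/Flow++, 469.6 and 187 CPM in Flow++ and 531 and 410.1 CPM in Flow+, against 89.2 and 112 CPM in Native. Its cultured libraries all lay above Native and the 4 cultured groups overlapped with their neighbours, Flow++ replicate 2 being the lowest. P4HA1 rose by 1.78 ± 0.45 (0.0276) in Stent/Flow-, 2.42 ± 0.44 (0.00315) in Stent/Flow++, 1.71 ± 0.45 (0.0272) in Flow++ and 2.23 ± 0.46 (0.0114) in Flow+. P4HA1 lost its calls in Stent/Flow- without Stent/Flow- replicate 2 (0.101) or Native replicate 1 (0.167) or 2 (0.121), in Flow++ without Flow++ replicate 1 (log2 fold change 0.90, adjusted p = 0.237) or Native replicate 1 (0.175) or 2 (0.106) and in Flow+ without Flow+ replicate 1 (0.0832) or Native replicate 1 (0.106) or 2 (0.0715). In Stent/Flow++ it was kept in each of 19 alternatives.

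P4HA2 (ENSSSCG00000020915, chromosome 2, 134502210 to 134595444) had 293 and 387 CPM in Stent/Flow-, 283, 441 and 617 CPM in Stent/Flow++, 401 and 246 CPM in Flow++ and 364 and 317 CPM in Flow+, against 130.4 and 121 CPM in Native. The 9 cultured libraries were again all above Native, with overlapping cultured groups. Of the 4 members called in each group P4HA2 had the smallest rises, 1.43 ± 0.38 (0.0340) in Stent/Flow-, 1.83 ± 0.37 (0.00529) in Stent/Flow++, 1.36 ± 0.38 (0.0354) in Flow++ and 1.43 ± 0.38 (0.0331) in Flow+. P4HA2 lost its calls in Stent/Flow- without Stent/Flow- replicate 1 (0.0655) or 2 (0.109), Stent/Flow++ replicate 2 (0.0511), Flow+ replicate 1 (0.0569) or 2 (0.0571) or Native replicate 1 (0.161) or 2 (0.196); in Stent/Flow++ without Native replicate 1 (0.0565) or 2 (0.0577); in Flow++ without Stent/Flow++ replicate 2 (0.0533), Flow++ replicate 1 (0.218), Flow+ replicate 1 (0.0581) or 2 (0.0581) or Native replicate 1 (0.169) or 2 (0.181); in Flow+ without Stent/Flow++ replicate 2 (0.0507), Flow+ replicate 1 (0.171) or 2 (0.117) or Native replicate 1 (0.168) or 2 (0.182).

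P4HA3 (ENSSSCG00000014840, chromosome 9, 8627365 to 8681804), the third alpha subunit, was the member that passed a test between culture conditions. It was measured at 26.8 and 25.2 CPM in Stent/Flow-, 82.9, 152 and 98.6 CPM in Stent/Flow++, 141 and 74.7 CPM in Flow++ and 54.8 and 40.3 CPM in Flow+, against 10.7 and 12.1 CPM in Native. Stent/Flow++ and Flow++ overlapped with each other, and Flow+, Stent/Flow- and Native came below them in this order without overlap. P4HA3 rose by 3.29 ± 0.39 (0.000321) in Stent/Flow++, 3.24 ± 0.40 (0.000980) in Flow++ and 2.06 ± 0.38 (0.00760) in Flow+, and was at 1.19 ± 0.38 (0.0603) in Stent/Flow-, which did not pass. P4HA3 lost its call in Flow+ without Flow+ replicate 1 (0.0671) or Native replicate 1 (0.0790) or 2 (0.0589). It passed in Stent/Flow- with DESeq2 (0.0260), without a filter on low counts (0.0413) or without Stent/Flow++ replicate 1 (0.0434) or Flow++ replicate 1 (0.0475) or 2 (0.0448). Its calls in Stent/Flow++ and Flow++ were kept in each of 19 alternatives. As a share of its family P4HA3 had 4.65% and 2.97% in Stent/Flow-, 8.93%, 12.2% and 8.83% in Stent/Flow++, 13.9% and 14.7% in Flow++ and 5.77% and 5.25% in Flow+, against 4.64% and 4.92% in Native.

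Of the lysyl hydroxylases, PLOD1 (ENSSSCG00000003433, chromosome 6, 71987938 to 72019712) hydroxylates lysines in the helical part of the chains, and its loss in humans causes a form of Ehlers-Danlos syndrome. It stood at 713 and 392 CPM in Stent/Flow-, 269, 560.0 and 580.0 CPM in Stent/Flow++, 343 and 220.0 CPM in Flow++ and 368 and 380.5 CPM in Flow+, against 92.8 and 92.7 CPM in Native. The static group had the highest mean and overlapped with Stent/Flow++, which in turn overlapped with Flow+, whereas Flow+, Flow++ and Native did not overlap. PLOD1 rose by 2.57 ± 0.44 (0.00445) in Stent/Flow-, 2.34 ± 0.41 (0.00275) in Stent/Flow++, 1.60 ± 0.42 (0.0278) in Flow++ and 2.01 ± 0.43 (0.0132) in Flow+. PLOD1 lost its calls in Stent/Flow- without Native replicate 1 (0.0523) or 2 (0.0550), in Flow++ without Flow++ replicate 1 (0.169) or Native replicate 1 (0.154) or 2 (0.143) and in Flow+ without Flow+ replicate 1 (0.0724) or 2 (0.0747) or Native replicate 1 (0.106) or 2 (0.0981). In Stent/Flow++ it was kept in each of 19 alternatives.

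PLOD2 (ENSSSCG00000011689, chromosome 13, 86402673 to 86513167) hydroxylates lysines in the telopeptides, the short ends outside the helix, which leads to the hydroxylysine type of crosslink found in stiff tissues. It was at 101 and 204 CPM in Stent/Flow-, 609, 394 and 219 CPM in Stent/Flow++, 344 and 191 CPM in Flow++ and 351 and 288 CPM in Flow+, against 61.9 and 96.6 CPM in Native. All cultured libraries were above Native, Stent/Flow- replicate 1 only barely. PLOD2 rose by 2.36 ± 0.50 (0.00682) in Stent/Flow++, 1.75 ± 0.51 (0.0416) in Flow++ and 2.01 ± 0.52 (0.0287) in Flow+, and was at 0.94 ± 0.50 (0.239) in Stent/Flow-, which did not pass. Neighbouring groups overlapped from Stent/Flow++ through Flow+ and Flow++ to Stent/Flow-. PLOD2 lost its calls in Stent/Flow++ without Native replicate 1 (0.0815), in Flow++ without Stent/Flow++ replicate 2 (0.0597), Flow++ replicate 1 (0.230), Flow+ replicate 1 (0.0620) or 2 (0.0620) or Native replicate 1 (0.234) or 2 (0.103) and in Flow+ without Flow+ replicate 1 (0.144) or 2 (0.0955) or Native replicate 1 (0.190) or 2 (0.0907).

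Within Stent/Flow++ the members did not rank the libraries alike. Replicate 1 had the highest LOX and PLOD2 and the lowest LOXL1, LOXL2, P4HA2 and PLOD1 of the group, and replicate 3 had the reverse for these 6 genes. PLOD1 made up 30.7%, 58.7% and 72.6% of the PLOD1 and PLOD2 sum in Stent/Flow++ replicates 1, 2 and 3. Its share was 87.6% and 65.8% in Stent/Flow-, 50.0% and 53.5% in Flow++ and 51.2% and 56.9% in Flow+, against 60.0% and 49.0% in Native. Replicate 3 is the library with the d suffix of 7, and the part of that label in these values was not tested.

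The 3 comparisons between cultured groups gave a single call. Between the stented groups, P4HA3 was higher in Stent/Flow++ than in Stent/Flow-, by 2.10 ± 0.36 (0.0164), or 4.28-fold with a 95% interval of 2.47 to 7.43. This made 1 of 9 members higher and 0 lower, beside 1.18% and 1.67% of all genes tested, with a median of 0.87 over the members and 0.01 over all genes tested. P4HA3 lost its call with only the groups compared (0.0859) or without Stent/Flow- replicate 1 (0.100). LOX at 1.73 ± 0.59 (0.140) and PLOD2 at 1.42 ± 0.48 (0.133) did not pass, although each Stent/Flow++ library was above both Stent/Flow- libraries. LOX passed with DESeq2 (0.0263) or without a filter on low counts (0.0388). PLOD2 passed with DESeq2 (0.0350) or without a filter on low counts (0.0488). Libraries lay wholly higher in Stent/Flow++ for 5 of 9 members and wholly lower for 0, beside 14.5% and 15.7% of all genes tested. PLOD1 was at -0.23 ± 0.37, with a 95% interval of -1.06 to 0.59. Both Stent/Flow- libraries carry the d suffix of 3 and no Stent/Flow++ library does. In this comparison that label and flow cannot be told apart.

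Stented against unstented vessels under flow gave 0 of 9 calls in edgeR, DESeq2 and limma-voom, with 1 of 9 at an unadjusted edgeR p under 0.05. Among all genes tested edgeR called 0% in this comparison, 0 genes, with 467 at an unadjusted p under 0.05, and DESeq2 called 6. The member with the lowest p was LOXL2, 1.69 ± 0.46 in Stent/Flow++ minus Flow++ (1.00). Its 3 Stent/Flow++ libraries lay above the 2 Flow++ ones, the only member of 9 to do so, and none lay wholly lower, beside 5.49% and 6.97% of all genes tested. P4HA3 differed by 0.05 ± 0.33, with a 95% interval of -0.69 to 0.78. Upper bounds over the 9 members ran from 1.71-fold for P4HA3 to 6.52-fold for LOXL2.

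Flow++ against Flow+ also gave 0 of 9 calls in edgeR, DESeq2 and limma-voom, with 1 of 9 at an unadjusted edgeR p under 0.05, where edgeR called 0.104% of all genes tested. That member was P4HA3 at 1.18 ± 0.37 (0.508). LOXL2 stood at -0.86 ± 0.48 (0.677), with both Flow++ libraries below the Flow+ ones. Libraries did not overlap for 1 member in the higher direction, P4HA3, and 2 in the lower, LOXL2 and PLOD1, beside 22.3% and 22.9% of all genes tested.

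The fibrillar collagen chains on which the enzymes act mostly did not pass the test. Of 7 chains measured, 0 rose and 0 fell in Stent/Flow-, 2 rose and 0 fell in Stent/Flow++, 1 rose and 0 fell in Flow++ and 0 rose and 0 fell in Flow+, with median log2 fold changes of -1.12, 0.34, -0.05 and 0.12. Those that rose, named here after their values were seen, were COL5A2 at 1.59 ± 0.40 (0.0157) in Stent/Flow++ and COL11A1 at 3.06 ± 0.91 (0.0314) in Stent/Flow++ and 3.85 ± 0.97 (0.0233) in Flow++, minor chains that join type I fibrils or cartilage fibrils. COL11A1 varied widely, with 93.5, 87.9 and 22.8 CPM in Stent/Flow++ and 207 and 28.8 CPM in Flow++, against 7.62 and 8.69 CPM in Native. The calls of COL5A2 and COL11A1 were not recomputed under the alternatives. The major chain COL1A1 was at 7555 and 13850 CPM in Stent/Flow-, 15024, 28860 and 44633 CPM in Stent/Flow++, 32870 and 12093 CPM in Flow++ and 24939 and 25428 CPM in Flow+, against 20529 and 26006 CPM in Native, so that the groups overlapped in all but Stent/Flow-. Its changes were -1.12 ± 0.58 (0.226) in Stent/Flow-, 0.34 ± 0.53 (0.677) in Stent/Flow++, -0.05 ± 0.57 (0.968) in Flow++ and 0.11 ± 0.57 (0.923) in Flow+. COL1A2, its partner in type I collagen, was at -1.35 ± 0.65 (0.195) in Stent/Flow-, 0.26 ± 0.59 (0.783) in Stent/Flow++, -0.11 ± 0.64 (0.931) in Flow++ and 0.06 ± 0.64 (0.968) in Flow+. COL3A1, the chain of type III collagen, was at -2.21 ± 0.73 (0.0701) in Stent/Flow-, -0.18 ± 0.63 (0.864) in Stent/Flow++, -0.83 ± 0.70 (0.465) in Flow++ and -0.78 ± 0.70 (0.508) in Flow+. COL3A1 passed in Stent/Flow- with DESeq2 (0.00680), with limma-voom (0.0296), without a filter on low counts (0.0147) or without Stent/Flow- replicate 2 (0.0113) and in Flow+ with only the groups compared (0.0376). Without Stent/Flow- replicate 1 the Stent/Flow- values were -1.44 for COL3A1 and -0.73 for COL1A2, and without Stent/Flow- replicate 2 they were -3.86 for COL3A1 and -2.42 for COL1A2. COL1A1 was at -0.73 without Stent/Flow- replicate 1.

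Elastin, ELN, the other substrate of the lysyl oxidases, fell in each cultured group. Of 10 measured genes of elastic fibres, ELN included, 0 rose and 4 fell in Stent/Flow-, 0 rose and 4 fell in Stent/Flow++, 0 rose and 3 fell in Flow++ and 0 rose and 3 fell in Flow+. Among all genes tested, 7.19%, 13.9%, 8.86% and 7.38% fell in the same order. EMILIN1, FBLN1, FBN1, LTBP2 and MFAP2 were called in no group. ELN stood at 295 and 881 CPM in Stent/Flow-, 519, 329.8 and 635 CPM in Stent/Flow++, 425 and 489.7 CPM in Flow++ and 1587 and 945 CPM in Flow+, against 4730 and 5307 CPM in Native. The highest cultured library, Flow+ replicate 1, was still far below Native. Its changes were -3.09 ± 0.53 (0.00468) in Stent/Flow-, -3.34 ± 0.46 (0.000720) in Stent/Flow++, -3.46 ± 0.54 (0.00262) in Flow++ and -1.99 ± 0.51 (0.0281) in Flow+. ELN lost its call in Flow+ without Flow+ replicate 1 (0.101) or 2 (0.200) or Native replicate 1 (0.0994) or 2 (0.127). Still called, ELN was at in Stent/Flow- -2.49 without Stent/Flow- replicate 1 and -4.09 without Stent/Flow- replicate 2.

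Set against the summed CPM of COL1A1, COL1A2 and COL3A1 in the same library, the members' transcripts were more abundant in each cultured library. The sums hold only members, so LOXL4 is not among the lysyl oxidases and PLOD3 not among the lysyl hydroxylases. For every 100 CPM of these chains, the lysyl oxidases had 4.57 and 2.13 CPM in Stent/Flow-, 2.84, 1.66 and 2.30 CPM in Stent/Flow++, 1.66 and 1.81 CPM in Flow++ and 2.21 and 2.21 CPM in Flow+, against 0.644 and 0.657 CPM in Native. The prolyl 4-hydroxylase alpha subunits had 1.35 to 4.90 CPM per 100 in culture, against 0.395 and 0.345 in Native. The lysyl hydroxylases had 0.914 to 6.92 in culture, against 0.266 and 0.266 in Native. No cultured library overlapped with Native in any of the 3 ratios, which do not depend on the scaling. The highest values of all 3 were those of Stent/Flow- replicate 1, which also had the lowest sum of the 3 chains, 11766 CPM, against 58241 and 71123 CPM in Native. These ratios describe genes chosen with results known and carry no test.

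**Figure D4:**
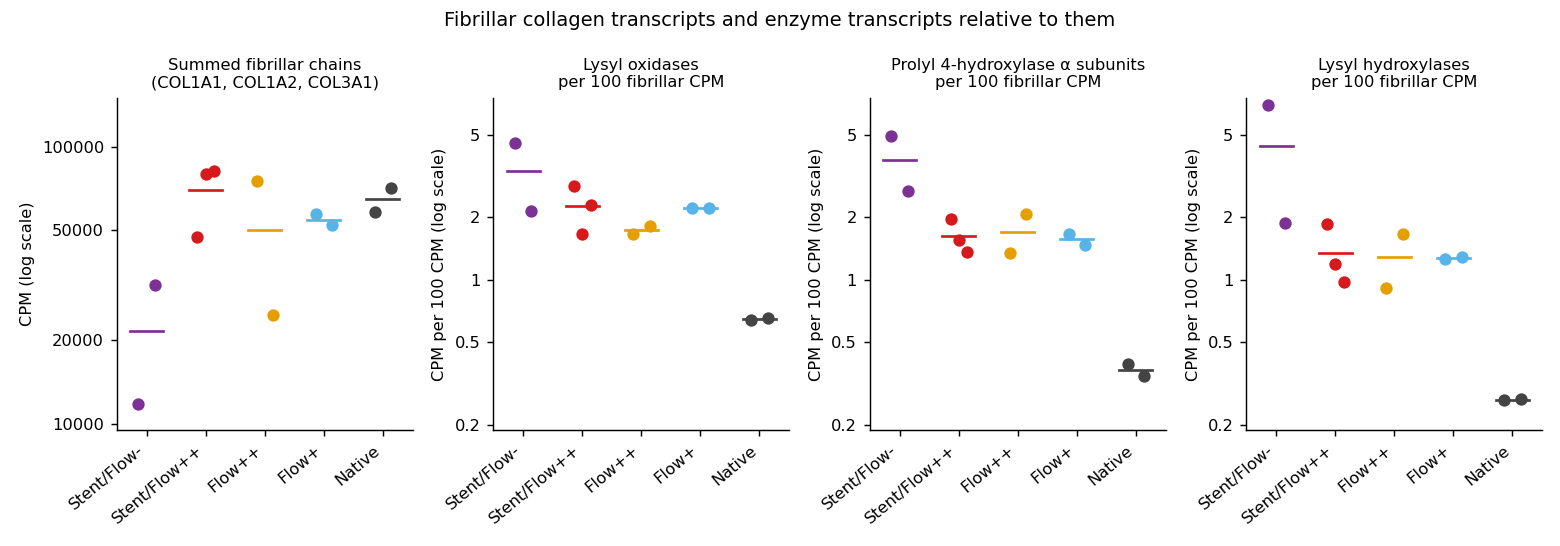
Summed CPM of 3 fibrillar collagen chains and the summed CPM of each enzyme family's members per 100 CPM of these chains, on logarithmic axes, with 1 point per library and a bar at each group's mean. The fibrillar sums of culture and Native overlap, while the lysyl oxidase ratio is 1.66 or more in culture and 0.657 or less in Native.

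Further genes of collagen processing came from a list of 28, of which 24 were measured. Of these, 3 rose and 2 fell in Stent/Flow-, 12 rose and 3 fell in Stent/Flow++, 9 rose and 3 fell in Flow++ and 3 rose and 2 fell in Flow+. The shares of all genes tested that rose were 5.54%, 10.4%, 5.94% and 5.03% in the same order, and the shares that fell were 7.19%, 13.9%, 8.86% and 7.38%, so that the falls in the list were near them. The list had median log2 fold changes of 0.29, 1.14, 1.13 and 0.72. LOXL4, the remaining lysyl oxidase, and PLOD3, a lysyl hydroxylase that also glycosylates hydroxylysine, rose in all 4 groups. LOXL4 had 18.0 and 13.4 CPM in Stent/Flow-, 26.1, 46.6 and 52.6 CPM in Stent/Flow++, 49.2 and 20.4 CPM in Flow++ and 26.7 and 19.5 CPM in Flow+, against 3.00 and 3.91 CPM in Native. All cultured libraries were well above Native. LOXL4 rose by 2.18 ± 0.48 (0.0153) in Stent/Flow-, 3.59 ± 0.48 (0.000675) in Stent/Flow++, 3.33 ± 0.50 (0.00223) in Flow++ and 2.74 ± 0.48 (0.00615) in Flow+. LOXL4 lost its calls in Stent/Flow- without Stent/Flow- replicate 1 (0.0695) or Native replicate 1 (0.124) or 2 (0.0884) and in Flow+ without Flow+ replicate 1 (0.05002) or Native replicate 1 (0.0725). Still called, LOXL4 was at in Flow++ 2.57 without Flow++ replicate 1. PLOD3 rose by 1.74 ± 0.34 (0.00927) in Stent/Flow-, 1.93 ± 0.33 (0.00214) in Stent/Flow++, 1.54 ± 0.34 (0.0133) in Flow++ and 1.42 ± 0.34 (0.0218) in Flow+. PLOD3 lost its calls in Stent/Flow- without Native replicate 1 (0.0797) or 2 (0.0947), in Flow++ without Flow++ replicate 1 (0.0803) or Native replicate 1 (0.0951) or 2 (0.103) and in Flow+ without Flow+ replicate 1 (0.109) or 2 (0.117) or Native replicate 1 (0.135) or 2 (0.143).

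FKBP10, an endoplasmic reticulum chaperone that works with PLOD2, was at 277 and 263 CPM in Stent/Flow-, 435, 901 and 848 CPM in Stent/Flow++, 648 and 458 CPM in Flow++ and 459.6 and 409 CPM in Flow+, against 122 and 154 CPM in Native. FKBP10 rose by 2.40 ± 0.36 (0.00114) in Stent/Flow++, 2.00 ± 0.37 (0.00610) in Flow++ and 1.65 ± 0.37 (0.0160) in Flow+, and was at 0.97 ± 0.36 (0.101) in Stent/Flow-, which did not pass. FKBP10 lost its calls in Flow++ without Native replicate 1 (0.0746) and in Flow+ without Flow+ replicate 1 (0.106) or 2 (0.0752) or Native replicate 1 (0.144) or 2 (0.0841). It passed in Stent/Flow- without Stent/Flow++ replicate 1 (0.0360). BMP1, which trims procollagen and activates pro-lysyl oxidase, rose by 1.84 ± 0.38 (0.00610) in Stent/Flow++ and 1.77 ± 0.40 (0.0146) in Flow++, and was at 1.27 ± 0.39 (0.0574) in Stent/Flow- and 1.08 ± 0.39 (0.0967) in Flow+. BMP1 lost its calls in Stent/Flow++ without Native replicate 2 (0.0745) and in Flow++ without Flow++ replicate 1 (0.0762) or Native replicate 1 (0.0687) or 2 (0.126). It passed in Stent/Flow- with DESeq2 (0.0186), with limma-voom (0.0490), without a filter on low counts (0.0336), with the replicate block (0.0463) or without Stent/Flow++ replicate 1 (0.0285) or 3 (0.0278) and in Flow+ with only the groups compared (0.00524). P3H1, a prolyl 3-hydroxylase, rose by 1.29 ± 0.33 (0.0290) in Stent/Flow-, 1.52 ± 0.31 (0.00605) in Stent/Flow++ and 1.57 ± 0.33 (0.0112) in Flow++, and was at 0.85 ± 0.33 (0.115) in Flow+. P3H1 lost its calls in Stent/Flow- with only the groups compared (0.0578) or without Stent/Flow- replicate 1 (0.190), Flow+ replicate 1 (0.0530) or 2 (0.0529) or Native replicate 1 (0.135) or 2 (0.183), in Stent/Flow++ without Native replicate 1 (0.0553) or 2 (0.0648) and in Flow++ without Flow++ replicate 1 (0.0723) or Native replicate 1 (0.0780) or 2 (0.0945). It passed in Flow+ with only the groups compared (0.00953).

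Not all of the modifying enzymes were higher. P3H2, a prolyl 3-hydroxylase of basement membrane collagen, had 12.1 and 10.8 CPM in Stent/Flow-, 7.32, 4.60 and 12.7 CPM in Stent/Flow++, 8.75 and 6.16 CPM in Flow++ and 6.89 and 5.80 CPM in Flow+, against 90.0 and 108 CPM in Native. P3H2 fell in all 4 groups, with -3.11 ± 0.44 (0.00186) in Stent/Flow-, -3.59 ± 0.38 (0.000195) in Stent/Flow++, -3.73 ± 0.45 (0.000890) in Flow++ and -3.97 ± 0.46 (0.000752) in Flow+, and these calls were kept in each of 19 alternatives. COLGALT2, a collagen galactosyltransferase, fell with -3.92 ± 0.64 (0.00169) in Stent/Flow++, -4.11 ± 0.75 (0.00577) in Flow++ and -3.62 ± 0.73 (0.0106) in Flow+, and was at -1.17 ± 0.66 (0.261) in Stent/Flow-. Its level was 0.646, 2.19 and 0.890 CPM in Stent/Flow++ and 1.68 and 0.513 CPM in Flow++, from 9 to 39 counts a library. Flow+ had 1.54 and 1.54 CPM. Stent/Flow-, at 12.4 and 4.38 CPM, also lay below Native, at 19.2 and 18.8 CPM. COLGALT2 lost its call in Flow+ without Flow+ replicate 1 (0.103) or 2 (0.0972) or Native replicate 1 (0.0519) or 2 (0.0511). Still called, COLGALT2 was at in Stent/Flow++ -4.60 without Stent/Flow++ replicate 2 and in Flow++ -5.19 without Flow++ replicate 1 and -3.45 without Flow++ replicate 2. TLL1, a protease related to BMP1, was at 0.751 and 0.608 CPM in Stent/Flow-, 2.94, 1.80 and 0.984 CPM in Stent/Flow++, 1.07 and 0.924 CPM in Flow++ and 4.88 and 8.42 CPM in Flow+, against 4.69 and 6.67 CPM in Native. TLL1 fell with -3.04 ± 0.60 (0.00973) in Stent/Flow-, -1.59 ± 0.50 (0.0392) in Stent/Flow++ and -2.50 ± 0.59 (0.0171) in Flow++, and was at 0.23 ± 0.54 (0.822) in Flow+, where the libraries overlapped with Native. TLL1 lost its calls in Stent/Flow- without Stent/Flow- replicate 1 (0.0533) or Native replicate 2 (0.0664), in Stent/Flow++ with the replicate block (0.146), with only the groups compared (0.0696) or without Stent/Flow++ replicate 2 (0.104) or 3 (0.0915), Flow+ replicate 1 (0.0553) or 2 (0.0590) or Native replicate 1 (0.0884) or 2 (0.223) and in Flow++ without Flow++ replicate 1 (0.0932) or 2 (0.0897) or Native replicate 2 (0.102).

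**Figure D5:**
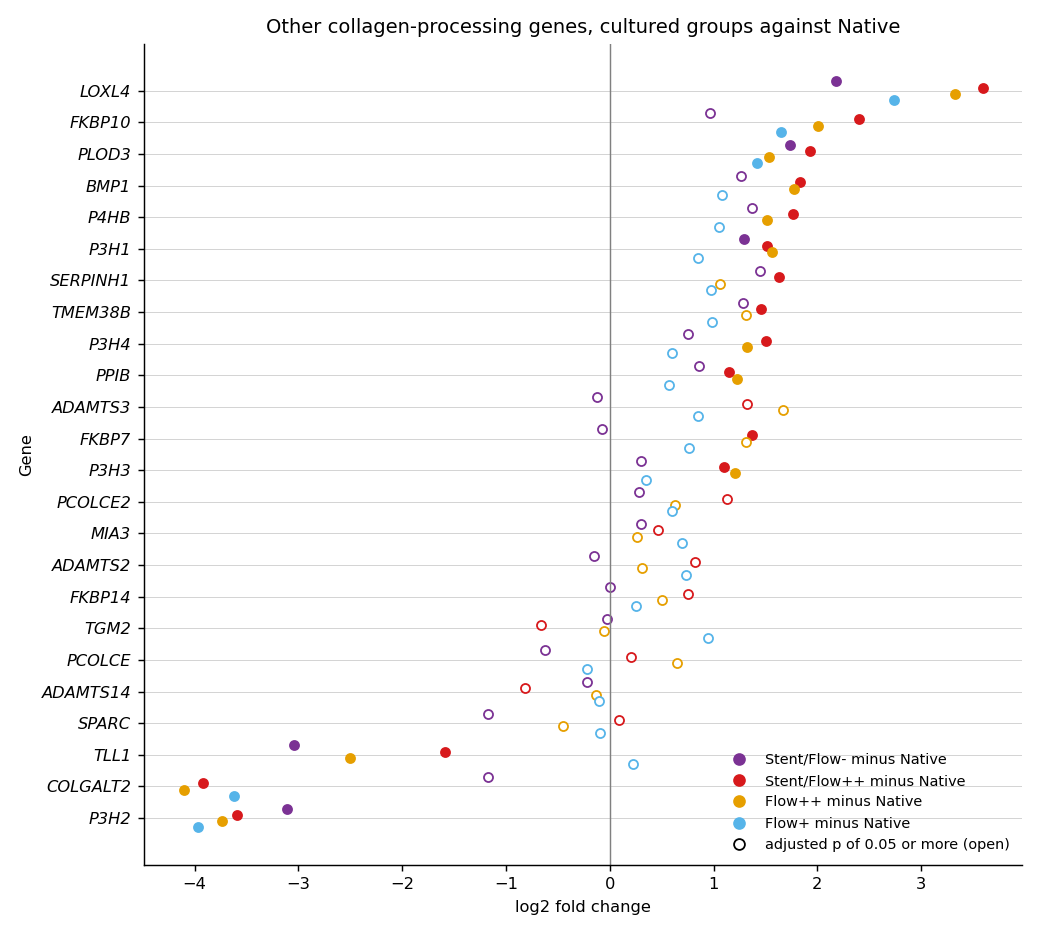
Log2 fold changes of the 24 measured genes of the collagen-processing list in the 4 cultured groups against Native, with filled points where the edgeR adjusted p was under 0.05. LOXL4 at 2.18 to 3.59 and P3H2 at -3.97 to -3.11 have all 4 points filled.

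Over the same libraries most measured genes of a hypoxia-responsive list, which holds no member, rose. Of 17 measured, 10 rose and 0 fell in Stent/Flow-, 11 rose and 1 fell in Stent/Flow++, 10 rose and 1 fell in Flow++ and 9 rose and 0 fell in Flow+. In the same order, 5.54%, 10.4%, 5.94% and 5.03% of all genes tested rose, and 7.19%, 13.9%, 8.86% and 7.38% fell. ADM, KDM3A, PDK1 and PFKFB4 were called in no group, and PFKFB3 fell in 2. The summed level of the 17 genes was 5526 to 10372 CPM in the 9 cultured libraries, against 1904 and 1834 CPM in Native, and its part in the levels of the enzymes was not tested.

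The shapes of the members' profiles over the 11 libraries were compared as the root mean square difference of log2 CPM, each gene centred on its own mean, so that 0 is an identical shape. P4HA1 was closest to PLOD2 (0.42), LOX also to PLOD2 (0.44) and P4HA2 to PLOD1 (0.46). PLOD1 and PLOD2 were 0.96 apart, LOX and LOXL2 1.08, and LOXL1 and LOXL2, the farthest pair, 1.74. Among 8401 other genes with a symbol and a mean log2 CPM of at least 3, the nearest to LOX were ZC3H12C (0.40) and ANLN (0.40), to LOXL1 WFDC1 (0.30) and PRDX2 (0.34), to LOXL2 IL27RA (0.35) and SLC6A9 (0.44) and to LOXL3 RRM1 (0.25) and TEX10 (0.26). P4HA1 had ADAM9 (0.22) and DSEL (0.23), P4HA2 had XPO5 (0.19) and TFDP1 (0.20) and P4HA3 had SDC1 (0.28) and GLIS1 (0.38). PLOD1 had NCKIPSD (0.22) and KLHL12 (0.23), and PLOD2 had BICC1 (0.27) and GPD2 (0.29). The difference between cultured and Native libraries is part of these profiles, so the values are a description.

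The authors' deposited tables of changed genes against Native list 9 entries for the members. In the authors' deposited table for Stent/Flow-, log2 fold changes are 2.58 for LOXL2 and 2.57 for PLOD1. The authors' deposited table for Stent/Flow++ lists LOXL2 at 3.67, P4HA3 at 3.29, P4HA1 at 2.41 and PLOD1 at 2.34. Those for Flow++ and Flow+, also the authors' deposited tables, list P4HA3 at 3.25 in Flow++ and LOXL2 at 2.84 and PLOD1 at 2.02 in Flow+. In the fits here the same entries were called with the same sign. The reverse did not hold, and no member is listed by the authors for all 4 groups. Calls made here without such an entry are those of LOX, P4HA2 and PLOD2, and of P4HA1 outside Stent/Flow++. Those of LOXL2 and PLOD1 in Flow++ and of P4HA3 in Flow+ have none either. The authors' tables hold 553, 1117, 1129 and 928 entries for Stent/Flow-, Stent/Flow++, Flow++ and Flow+, where 1955, 3737, 2272 and 1904 genes were called here. The 9 entries for the members lie between 2.02 and 3.67. Calls without an entry lie below this range, as P4HA2 at 1.83 in Stent/Flow++, or within it, as PLOD2 at 2.36 there. The cut-offs behind the authors' tables were not examined, so a missing entry need not mean a failed test.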

How the data were processed

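Porcine coronary artery RNA was sequenced (paired-end) in 11 libraries. Per the submitters' processing notes the authors used Trimmomatic, FastQC, the Sscrofa11.1 genome and DESeq2; aligner, counting settings, strand and annotation were not given in the sources used here. Raw counts per Ensembl gene were deposited by the authors in 2 tables with the same Native columns, joined on gene identifier, beside 4 lists of log2 fold changes against Native, cited only as such. Symbols were found for 14857 of 25880 identifiers. Positions are from RefSeq on Sscrofa11.1, where LOX, LOXL1, LOXL3, P4HA1, P4HA2, PLOD3, BMP1, TLL1, COL5A2 and COL11A1 overlap other annotated genes, so that their counts are uncertain.

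Groups were taken from the labels. The tests ran in edgeR 4.0.16 under R 4.3.3: filterByExpr, TMM, and the quasi-likelihood test in 1 fit of the 5 groups (6 residual and 5.02 prior degrees of freedom), Benjamini-Hochberg threshold 0.05. A prior count of 2 was added for log2 CPM. These steps were also run on simulated independent counts, with fewer changed genes than were called here against Native. The outcome is not reported here, and that run does not show how the steps behave on data like these. Alternatives were RLE and upper-quartile scaling, DESeq2 1.42.0, limma-voom (limma 3.58.1), no low-count filter, a minimum of 10 counts per library, only the groups compared, a replicate block, and each library left out.

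The members and gene lists were chosen with earlier results of these data known; 109 of 121 list entries matched. Named genes were the 9 members, up to 6 called genes of the collagen-processing list per comparison with Native by size of change, COL1A1, COL1A2, COL3A1 and ELN, and the 2 closest profiles per member.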

Additional observations from a re-analysis of the deposited data

Results flagged for a closer look

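P4HA3, the third alpha subunit of prolyl 4-hydroxylase, differed between stented vessels with and without flow. Its change against Native was 3.29 ± 0.39 in Stent/Flow++ and 1.19 ± 0.38 in Stent/Flow-, and the direct test of the difference gave 2.10 ± 0.36 on the log2 scale (edgeR adjusted p = 0.0164). All 3 Stent/Flow++ libraries were above both Stent/Flow- libraries. The edgeR adjusted p was 0.100 without Stent/Flow- replicate 1 and 0.0859 with only these groups in the fit. Both Stent/Flow- libraries carry the d suffix of 3, so what that label stands for and the absence of flow cannot be told apart.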

How the results depend on the processing

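RLE and upper-quartile scaling, limma-voom and a minimum of 10 counts in every library left each count of called members within 1.5 times the reported one. For Stent/Flow++ against Stent/Flow- the count was 3 with DESeq2, 3 without a filter on low counts and 0 with only the groups compared, against 1 as reported; the cause was not tested. With 1 library left out, a lone library left in a group being assumed to vary like the others, called members numbered 0 to 6 in Stent/Flow-, 4 to 8 in Stent/Flow++, 1 to 7 in Flow++, 0 to 7 in Flow+, 0 to 1 for Stent/Flow++ against Stent/Flow-, 3 to 8 for the average of culture, and 0 to 5 in all 4 comparisons; fewer samples are part of that construction.

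Over the changes of single genes, leaving out 1 library gave 1146 values with the direction and side of the threshold kept, 125 that lost the threshold, 21 that gained it and 28 that changed sign. The other settings gave 904, 5, 36 and 2. Signs changed only where the reported change was not called, over these log2 ranges: against Native, LOX in Stent/Flow- (-0.81 to 0.85), LOXL3 in Stent/Flow- (-0.49 to 0.65), COL1A1 in Stent/Flow++ (-0.0849 to 0.67), COL1A1 in Flow++ (-0.94 to 0.54), COL1A1 in Flow+ (-0.0541 to 0.33), COL1A2 in Flow++ (-1.29 to 0.57), COL1A2 in Flow+ (-0.13 to 0.27) and TLL1 in Flow+ (-0.21 to 0.57); for Stent/Flow++ against Stent/Flow-, PLOD1 (-0.59 to 0.26); for Stent/Flow++ against Flow++, LOX (-0.30 to 1.53), LOXL1 (-0.0952 to 0.91) and P4HA3 (-0.36 to 0.58); for Flow++ against Flow+, LOX (-1.60 to 0.23), LOXL1 (-0.000938 to 0.52), LOXL3 (-0.15 to 0.26), P4HA1 (-1.33 to 0.0229), P4HA2 (-0.47 to 0.26) and PLOD2 (-0.74 to 0.13).

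Replicate numbers 1 and 2 are shared by all groups, and deviations of same-numbered libraries correlated at -0.329 to 0.183. In groups of 2 libraries the deviations mirror each other, so these values cannot decide whether the numbers pair the samples. The reported fit used no pairing, and the number 25 shared by Native replicate 2 and Stent/Flow++ replicate 1 was not examined. With the replicate block, under which Stent/Flow++ replicate 3 is fitted exactly, called members numbered 5, 7, 6 and 7 in Stent/Flow-, Stent/Flow++, Flow++ and Flow+, and the signs of LOXL1 in Stent/Flow++ against Flow++ (-0.10) and of COL1A1 in Stent/Flow++ (-0.10) changed. Counts over gene lists, family shares and ratios were not recomputed under the alternatives. With 2 or 3 libraries a group, the spread between libraries and not counting error limits what can be detected.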
